A study of Homo sapiens with 10 samples.

Results

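Translation initiation factors are the proteins that bring the small ribosomal subunit, the initiator tRNA and the mRNA together and select the start codon. The genes described here are the protein-coding genes of the deposited table whose symbol is EIF followed by a digit from 1 to 6, without the eIF2 kinases (EIF2AK genes), the eIF4E-binding proteins (EIF4EBP genes and EIF4ENIF1) and any gene on chromosome Y. That rule gave 47 genes of 58735 in the table (19951 of them protein-coding). Of the 47, 43 reached 1 FPKM in at least 2 of the 10 libraries and were tested. FPKM scales the fragments of a gene by its length and by the size of the library. The length is the one deposited for the gene, such as 14067 bases for EIF4E and 1631 for EIF6. Comparisons of level between genes depend on it.

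The study profiled RNA of TPC-1, a human papillary thyroid carcinoma cell line that carries the CCDC6-RET fusion, a gene fusion that makes the RET kinase active without its ligand. BLU667 is pralsetinib, a selective RET kinase inhibitor. The 5 groups, with 2 libraries each, were parental cells in DMSO solvent for 24 h, parental cells in 5 µM BLU667 for 24 h, and 3 adapted colonies, BR8, BR10 and BR16, which had been derived from TPC-1 cells kept in 5 µM BLU667. The fusion is common to all of them. The labels of the colonies give an exposure of more than 50 days and the design text more than 5 months, and the acute and the adapted groups therefore differ in exposure time as well as in origin. The design text calls the 2 libraries of a group biological replicates. Each colony is 1 derived line, so its 2 libraries show the spread within that colony and not between colonies.

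Libraries held between 15243703 and 21904245 reads in genes, and the correlation between the 2 libraries of a group was between 0.9781 (DMSO) and 0.9888 (BR16). The libraries of DMSO differed from each other in a way that followed GC content: over 13923 genes the Spearman correlation of the difference between DMSO replicate 2 and replicate 1 with transcript GC content was -0.627, and that of BR8 minus BR16 was -0.615. Of the thyroid markers, PAX8 (35.3 to 94.7 FPKM) and FOXE1 (2.04 to 4.17 FPKM) were present, while TG, TSHR, NKX2-1 and SLC5A5 were at or below 0.23 FPKM. Of 5 epithelial markers, KRT8 and KRT18 exceeded 1 FPKM, and the sum of the list was 48.9 to 62.8 FPKM in DMSO, 28.2 to 28.6 in BLU667, 46.9 to 52.5 in BR8, 45.1 to 47.8 in BR10 and 97.4 to 109.7 in BR16. None of the 5 immune, 4 endothelial, 3 erythroid or 3 C cell markers reached 1 FPKM. Of 5 fibroblast markers, COL1A2 and DCN were at 0 in all libraries and the list summed to 13.1 to 17.5 FPKM in BLU667, mostly PDGFRB, and to 0.75 to 7.4 FPKM in the other groups. The part of these marker differences in the results below was not tested.

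In the usual pathway, eIF2 bound to GTP carries the initiator tRNA in the ternary complex, and eIF2B recharges eIF2 with GTP after each round. The factors eIF1, eIF1A, eIF5 and the multisubunit eIF3 assemble on the small subunit, and eIF4F (the cap-binding eIF4E, the scaffold eIF4G and the RNA helicase eIF4A, helped by eIF4B and eIF4H) recruits the mRNA. Start codon recognition is followed by subunit joining through eIF5B. Growth factor signalling through mTORC1 and ERK acts on mRNA recruitment by phosphorylating the eIF4E-binding proteins and, through MNK kinases, eIF4E itself. Several factor genes are known targets of MYC, whose family binds the E-box CACGTG, and several mRNAs of the translation machinery start with a C followed by a run of pyrimidines, the 5′ terminal oligopyrimidine motif, through which mTORC1 controls their translation.

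Both sequence features were looked up in RefSeq promoter entries (GRCh38.p14), each of which covers 250 bases before and 50 bases after an annotated start. Entries were matched by symbol for 40 of the 47 genes. EIF3A, EIF2S2, EIF3CL, EIF3E, EIF3G, EIF3L and EIF3H had none. The palindrome CACGTG, which reads the same on both strands, was present in at least 1 entry of 10 of the 40 genes (25%) and in 8.77% of all 27305 genes with an entry, whether expressed here or not. A C at the annotated start followed by 4 pyrimidines was present for 10 of the 40 genes (25%) and for 5.14% of all genes with an entry. Counted per entry, the shares were 17.9% of 56 member entries for each feature, against 7.26% and 4.07% of all 35116 entries. The features were chosen after the expression values had been seen, and a match describes letters in a window, not a bound factor or a mapped start of transcription.

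The 3 genes that follow each hold 2 E-boxes in 1 entry and are shown because their mRNA fell in BLU667. An E-box was held by 7 members called lower there and by 2 called higher, EIF4B and EIF3F. Other entries of EIF4G1 hold none. The E-box nearest to the annotated RefSeq start is given with 12 bases on each side, 5′ to 3′ on the gene's strand and with CACGTG in capitals. Counted from its first base to the start, it lies 67 bases upstream in EIF4G1, 72 in EIF4E and 162 in EIF5A2, and the other E-box lies 144, 225 and 187 bases upstream in the same order.
EIF4G1 (chr3:184314527-184314556, plus strand): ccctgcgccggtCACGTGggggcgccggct
EIF4E (chr4:98929188-98929217, minus strand): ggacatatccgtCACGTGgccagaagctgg
EIF5A2 (chr3:170908782-170908811, minus strand): cagggcgctcttCACGTGactgggcggagc

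The next 6 stretches cover 10 bases before and 20 bases from the annotated RefSeq start, and other isoforms of some of these genes, such as EIF4A2, start upstream of it. The first 3 belong to genes whose mRNA rose in BLU667 and begin with a C and a run of pyrimidines, which is in capitals. The last 3 belong to genes whose mRNA fell and have no such run at the start, so they carry no capitals.
EIF4A2 (chr3:186783567-186783596, plus strand): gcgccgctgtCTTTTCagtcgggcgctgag
EIF4B (chr12:53006446-53006475, plus strand): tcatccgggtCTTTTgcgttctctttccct
EIF3F (chr11:7987327-7987356, plus strand): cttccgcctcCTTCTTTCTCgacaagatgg
EIF5A (chr17:7306989-7307018, plus strand): tgggaacccgaccacactagcgcgctagaa
EIF5 (chr14:103334227-103334256, plus strand): ggcgttgttcagtcagagcgagaacattcc
EIF2S1 (chr14:67360318-67360347, plus strand): gaggttccgcatgcgcggtggagtgagcga

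Most initiation factor mRNAs that changed in parental cells after 24 h of BLU667 were lower than in DMSO. Of the 43 tested genes, 25 fell and 8 rose, and 10 did not pass the test (limma, Benjamini-Hochberg adjusted p over 13927 genes, threshold 0.05). Across all tested genes, 31.2% were called lower and 29% higher. The BLU667 counts for each role below stand beside these shares. The median log2 change of the 43 genes was -0.38, against -0.01 over all tested genes. In bulk RNA, fewer cells of a kind and less RNA per cell cannot be told apart. FPKM also measures a gene's share of the library, so a change in total RNA per cell is not seen. The falls were the larger changes, reaching -2.21 for EIF5A, while the highest rise was 0.715 for EIF4A2. Of the 33 called genes, 24 kept their call in each of 21 alternative analyses that tested them (20 for EIF2B2). The other 9 (EIF1, EIF3C, EIF3F, EIF3G, EIF3J, EIF3K, EIF4E3, EIF4G3 and EIF4H) lost it in at least 1.

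**Figure D1:**
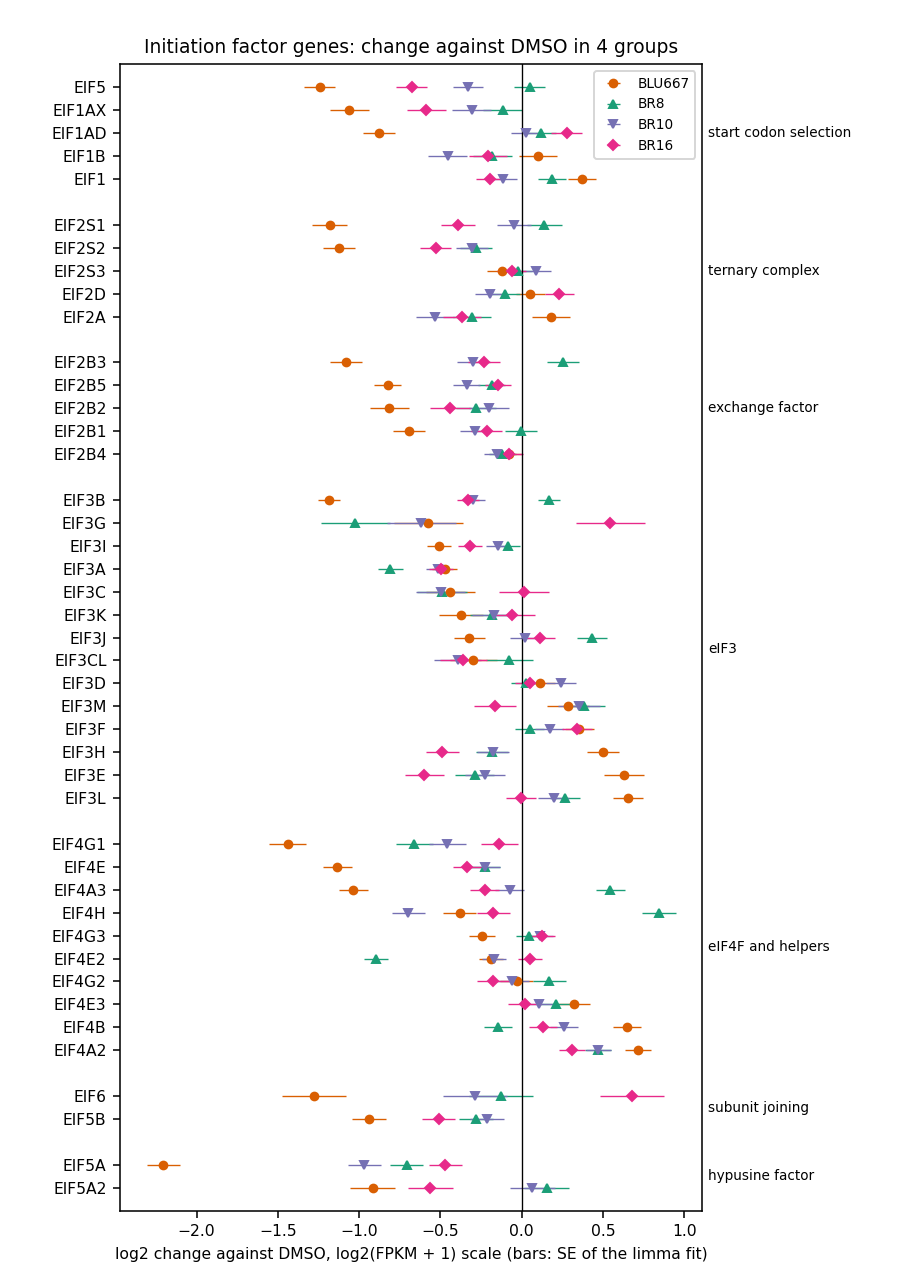
Log2 change against DMSO of the 43 tested initiation factor genes, grouped by role, in BLU667 and in the 3 colonies (points, group mean minus DMSO mean on the log2(FPKM + 1) scale, n = 2 libraries per group; bars, SE of the limma fit). The BLU667 points spread from -2.21 for EIF5A to 0.715 for EIF4A2, and the colony points lie between -1.023 and 0.85.

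The changes in BLU667 were set beside both sequence features. The 9 tested genes with a pyrimidine start had log2 changes between -0.37 and 0.715 in BLU667, with a median of 0.18. The 27 tested genes that had an entry without one had a median of -0.82 and a range of -2.21 to 0.37. Among the 22 called lower and matched to an entry, 7 (31.8%) held an E-box and 1 (4.55%), EIF3K, a pyrimidine start. Of the 5 called higher and matched, 2 (40%) held an E-box and 3 (60%) a pyrimidine start. Of the 9 tested, matched and not called, 1 held an E-box and 5 (55.6%) a pyrimidine start, a share close to that of the genes called higher. The 10 tested genes with an E-box had a median log2 change of -0.65, against -0.38 for the 26 without, and their ranges overlapped (-1.44 to 0.65 against -2.21 to 0.715). These splits are descriptions with no test.

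Of the 4 genes that act in start codon selection, EIF5, EIF1AX, EIF1 and EIF1B, 2 fell and 1 rose in BLU667. EIF5, the GTPase-activating protein of eIF2, stood at 44.4 and 53.2 FPKM in DMSO and 19.5 and 20.49 in BLU667, a log2 change of -1.24 ± 0.094 (SE; adjusted p = 1.20e-05). The colonies gave 49.2 and 51.5 FPKM in BR8, 38.9 and 38.03 in BR10 and 30.6 and 29.4 in BR16, so that BR8 lay within the DMSO range and BR16 between BLU667 and DMSO. EIF1AX encodes eIF1A, which helps scanning. It stood at 52.04 and 68.8 FPKM in DMSO and 27.8 and 28.5 in BLU667 (-1.06 ± 0.12, adjusted p = 0.000111), with 56.4 and 53.9 in BR8, 47.4 and 48.9 in BR10 and 40.1 and 38.97 in BR16. EIF1AD, which is named for an eIF1A-like domain and is not an established initiation factor, fell as well. It went from 7.05 and 7.98 FPKM to 3.62 and 3.65 (-0.88 ± 0.098) and stood between 7.20 and 9.77 FPKM in the colonies.

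EIF1 and its paralogue EIF1B encode the factor that guards against wrong start codons. Their changes were not tested against each other. EIF1 rose from 132 and 149 FPKM in DMSO to 187 and 177 in BLU667 (0.37 ± 0.086, adjusted p = 0.00586), and this call was lost when only DMSO and BLU667 were fitted (adjusted p = 0.0733). The colonies held 158 and 162 FPKM (BR8), 131 and 129 (BR10) and 127 and 118 (BR16). EIF1B, the less abundant of the pair, had 13.96 and 15.5 FPKM in DMSO and 15.6 and 16.1 in BLU667 (0.10 ± 0.12, adjusted p = 0.488). In the adapted colonies together EIF1B was lower than in DMSO (-0.28 ± 0.097, adjusted p = 0.0425), with 14.5 and 11.4 FPKM in BR8, 11.1 and 9.89 in BR10 and 13.3 and 11.9 in BR16. That call was lost in 13 of 23 alternatives, among them those without DMSO replicate 2 (-0.21) and without DMSO replicate 1 (-0.35).

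Of the 3 subunits of eIF2, 2 fell in BLU667. EIF2S1, the alpha subunit that the stress kinases phosphorylate, fell from 22.7 and 28.2 FPKM to 10.01 and 11.2 (-1.18 ± 0.10, adjusted p = 2.84e-05). EIF2S2, the beta subunit, fell from 40.9 and 47.2 to 20.96 and 18.4 FPKM (-1.12 ± 0.098, adjusted p = 2.48e-05). EIF2S3, the gamma subunit that binds GTP and the tRNA, did not pass the test, with 158 and 174 FPKM in DMSO and 155 and 149 in BLU667 (-0.12 ± 0.090, adjusted p = 0.267). All 10 libraries held EIF2S3 between 149 and 178 FPKM. It was more abundant than the other subunits in each of them.

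In the colonies EIF2S1 stood at 28.1 and 27.9 FPKM in BR8, 25.04 and 24.01 in BR10 and 19.2 and 18.99 in BR16, and EIF2S2 at 34.9 and 37.2, 34.6 and 36.1 and 30.9 and 29.4 in the same order. EIF2S2 was called lower than DMSO in the colony mean (-0.37 ± 0.080, adjusted p = 0.00534) and in each colony, but the calls in BR8 (adjusted p = 0.042) and BR10 (adjusted p = 0.0368) were lost in 12 and 11 of 21 alternatives. Without DMSO replicate 2, for example, the change was -0.18 in BR8 (adjusted p = 0.151) and -0.20 in BR10 (adjusted p = 0.123). EIF2S1 was called lower only in BR16 (-0.39 ± 0.10, adjusted p = 0.0164), a call lost in 4 of 21 alternatives. The test among colonies passed (adjusted p = 0.0084). The difference was 0.53 ± 0.105 for BR8 minus BR16 (adjusted p = 0.00466) and 0.35 ± 0.105 for BR10 minus BR16 (adjusted p = 0.0295).

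EIF2A and EIF2D, which are not eIF2 subunits but can deliver initiator tRNA in other ways, did not pass the test in BLU667. EIF2A had 37.3 and 47.8 FPKM in DMSO and 51 and 45.3 in BLU667 (0.18 ± 0.12, adjusted p = 0.206), and was called higher without DMSO replicate 2 (0.36, adjusted p = 0.00945). In the colonies it was lower, at 34.3 and 33.7 FPKM in BR8, 29.5 and 28.2 in BR10 and 33.04 and 31.9 in BR16 (-0.40 ± 0.095 for their mean, adjusted p = 0.00869). Its exons overlap SERP1 on the other strand, which had 34.0 to 64.8 FPKM, and reads of the 2 genes cannot be told apart in a library that keeps no strand. EIF2D lay between 6.59 and 9.38 FPKM in all libraries.

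Of the 5 eIF2B genes, which encode the exchange factor, 4 fell in BLU667 and none rose. EIF2B3 fell most, from 6.498 and 6.25 FPKM in DMSO to 2.33 and 2.63 (-1.08 ± 0.099, adjusted p = 3.23e-05). EIF2B5, the catalytic subunit, fell from 11.4 and 12.7 to 6.01 and 6.74 FPKM (-0.82 ± 0.082, adjusted p = 5.68e-05). EIF2B2 went from 5.08 and 4.64 to 2.41 and 2.26 FPKM (-0.81) and EIF2B1 from 14.6 and 17.1 to 9.24 and 9.598 (-0.69). EIF2B4 did not pass the test (5.02 and 4.499 against 4.64 and 4.26 FPKM, -0.08 ± 0.083, adjusted p = 0.435). In each of the 4 genes that fell, both BLU667 libraries were below all 8 other libraries. These genes were picked as called lower, and the share of all tested genes with such a gap was not counted.

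In all 6 colony libraries the same 4 genes stood above both BLU667 libraries, which the gap given above already includes. These 4 genes were picked as called lower in BLU667, and the share of all tested genes with such a gap was not counted. EIF2B5 stood at 10.6 and 10.4 FPKM in BR8, 9.37 and 9.26 in BR10 and 11.1 and 10.5 in BR16 (-0.22 ± 0.067 for the mean against DMSO, adjusted p = 0.0248). EIF2B3 had 7.32 and 8.301, 5.33 and 4.69 and 5.58 and 4.97 FPKM in the same order, the highest values being in BR8. EIF2B5 and EIF2B2 were the members of this group called lower in the adapted mean, and both calls were lost without DMSO replicate 2 (EIF2B5 -0.16, adjusted p = 0.122; EIF2B2 -0.36, adjusted p = 0.0628). None of the 5 was called in BR8 against DMSO, 3 were lower in BR10 and 1 in BR16. Of all tested genes, 27.3%, 21.5% and 23.6% were called lower in BR8, BR10 and BR16, so the BR16 count was near the background. The BR10 calls of EIF2B1 and EIF2B3 were each lost in 15 of 21 alternatives.

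The 14 eIF3 genes, whose products form the largest initiation factor, moved both ways in BLU667: 7 fell, 4 rose and 3 did not pass. Of all tested genes 31.2% were called lower and 29% higher, so the share of eIF3 genes that rose was near the background. Among the falls, EIF3B, a scaffold of the core, was the largest. Its level went from 39.04 and 37.2 FPKM in DMSO to 16.2 and 16.3 in BLU667 (-1.18 ± 0.068, adjusted p = 2.57e-06). EIF3A, the other core scaffold, went from 76.6 and 76.7 to 57.6 and 52.5 FPKM (-0.47 ± 0.076) and EIF3I from 136 and 141 to 95.05 and 98.9 (-0.51 ± 0.074). The falls of EIF3G (25.7 and 15.4 to 14.1 and 12.1 FPKM), EIF3K and EIF3J were less firm. EIF3G lost its call in 15 of 21 alternatives, and its change was -0.22 without DMSO replicate 1 and -0.93 without DMSO replicate 2.

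The eIF3 genes that rose encode EIF3L, EIF3E, EIF3H and EIF3F. EIF3L stood at 46.9 and 56.3 FPKM in DMSO and 82.02 and 80.7 in BLU667 (0.65 ± 0.093, adjusted p = 0.000438). EIF3E went from 104 and 134 to 193 and 175 FPKM (0.63 ± 0.12, adjusted p = 0.00228). EIF3H went from 58.3 and 70.7 to 92.8 and 89.7 FPKM (0.50 ± 0.099, adjusted p = 0.00259). EIF3F had the smallest of these rises, from 18.9 and 16.3 to 22.4 and 23.1 FPKM (0.35 ± 0.090). In these 4 genes, which were picked as called higher, both BLU667 libraries lay above both DMSO libraries. How many of all tested genes did so was not counted. EIF3D, the subunit that can itself bind a cap, was at 61.5 and 58.01 FPKM in DMSO and 64.9 and 64.5 in BLU667 and did not pass the test (adjusted p = 0.324), nor did EIF3M (adjusted p = 0.0849).

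In the adapted colonies 4 of the 14 eIF3 genes (28.6%) were lower than in DMSO and none was higher. Of all tested genes 26.3% were called lower and 22.9% higher, so the lower count was near the background. The split also depended on DMSO replicate 2 and on BR16. Without DMSO replicate 2, EIF3J (0.32, adjusted p = 0.00575), EIF3L (0.285, adjusted p = 0.00697) and EIF3M (0.38, adjusted p = 0.0113) were called higher, and EIF3A, EIF3B, EIF3C and EIF3G lower. Without BR16 in the mean, the same 3 were called higher (0.23, 0.23 and 0.37) and EIF3A, EIF3C and EIF3G lower. EIF3A had 42.1 and 44.6 FPKM in BR8, 53.2 and 53.5 in BR10 and 55.4 and 52.7 in BR16, all below the DMSO values (-0.61 ± 0.062, adjusted p = 0.000108). EIF3A was called lower in each colony. EIF3E had 93.5 and 99.99 FPKM in BR8, 105 and 97.5 in BR10 and 78.1 and 77.6 in BR16, the lowest in BR16 (-0.37 ± 0.10, adjusted p = 0.015). EIF3H followed with 54.6 and 58.5, 57.8 and 55.6 and 44.6 and 46.5 FPKM (-0.28 ± 0.081). Without DMSO replicate 2, the changes of EIF3E and EIF3H were -0.19 and -0.15 and no longer called (adjusted p = 0.0926 and 0.109). The fourth, EIF3I, changed by -0.18 ± 0.061 and lost its call in several leave-one-out fits.

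EIF3C and EIF3CL are near-identical copies, and their values (0.595 to 1.67 and 0.756 to 1.57 FPKM) depend on how reads that match both were counted, a point on which the sources used here are silent. They are uncertain for that reason and are counted in the totals only.

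Of 11 genes of eIF4F and its helpers, 9 were tested, and in BLU667 4 fell and 3 rose. Among all tested genes 31.2% fell and 29% rose, so the share that rose was near the background. EIF4G1 (chr3:184314495-184335358), the main scaffold, fell from 129.6 and 108 FPKM in DMSO to 43.5 and 42.6 (-1.44 ± 0.11, adjusted p = 1.45e-05). EIF4E, which binds the cap, fell from 6.71 and 7.36 to 2.89 and 2.44 FPKM (-1.14 ± 0.089, adjusted p = 1.46e-05). Both genes have a pair of E-boxes upstream of the start, of which 1 is printed above. EIF4A3, a relative of the initiation helicase that works in the exon junction complex and is not counted with them, also fell from 27.4 and 26.2 to 12.1 and 13.1 FPKM (-1.03 ± 0.089, adjusted p = 2.36e-05). EIF4H changed by -0.38 ± 0.10 and EIF4G3 by -0.24 ± 0.078, and both calls depended on the settings.

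The helicase gene EIF4A2 and the helper EIF4B rose in BLU667. EIF4A2 (chr3:186783205-186789900) stood at 62.2 and 64.1 FPKM in DMSO and 102 and 107 in BLU667 (0.715 ± 0.079, adjusted p = 0.000102), and all 6 colony libraries lay between, at 84.5 and 91.3 in BR8, 91.3 and 85.01 in BR10 and 76.6 and 80.6 in BR16. It was the only member of the 43 that was called higher in the adapted mean than in DMSO (0.42 ± 0.065, adjusted p = 0.00101), and it was called higher in each colony, in BR16 not under all settings. Its exons overlap RFC4 on the other strand, which ranged from 3.46 to 23.6 FPKM. EIF4B went from 102 and 91.6 FPKM to 151 and 152 (0.65 ± 0.087, adjusted p = 0.000313). The colonies had 82.4 and 92.4 FPKM of EIF4B in BR8, 119 and 113 in BR10 and 107 and 105 in BR16.

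EIF4A1, the paralogue of EIF4A2 and usually the more abundant helicase, was listed at 0.652 to 0.868 FPKM in these files, from 56 to 91 reads per library, and did not pass the filter. It shares exons with the read-through gene SENP3-EIF4A1 (0 to 0.162 FPKM) and with small nucleolar RNA genes. The treatment of reads that fall in both genes is not stated, so no level of EIF4A1 is drawn from this value and the pair of helicases was not compared.

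In the colonies EIF4G1 stayed below DMSO on average (-0.42 ± 0.092, adjusted p = 0.00621), with 71.7 and 77.4 FPKM in BR8, 79.5 and 92.9 in BR10 and 112 and 103 in BR16. It was called lower in BR8 and BR10 and not in BR16 (-0.14 ± 0.11), and the test among colonies passed (adjusted p = 0.0128). EIF4E had 5.97 and 5.78, 5.64 and 6.13 and 5.29 and 5.45 FPKM in the same order (-0.26 ± 0.073 for the mean, adjusted p = 0.0182). That call was lost without DMSO replicate 2 (-0.20, adjusted p = 0.102).

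The paralogues of EIF4E and EIF4G1 had smaller fitted changes in BLU667. EIF4E2, a cap-binding protein known as a repressor of translation, had 8.83 and 8.16 FPKM in DMSO and 7.39 and 7.26 in BLU667 (-0.19 ± 0.074, adjusted p = 0.0558). EIF4E3 rose from 0.925 and 0.909 FPKM to 1.33 and 1.46 (0.32 ± 0.10), close to the filter, and lost that call under several settings. EIF4G3 stood at 11.6 and 11.3 and 9.83 and 9.19 FPKM. EIF4G2, which lacks the eIF4E-binding part and supports other routes of initiation, was abundant and did not pass the test (133 and 163 against 144 and 144 FPKM, -0.03 ± 0.10, adjusted p = 0.817). The changes of the paralogues were not tested against each other.

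EIF5B and EIF6 act around the joining of the large subunit, EIF5B by promoting it and EIF6 by holding large subunits apart until they are ready. Both fell in BLU667. EIF5B went from 19.5 and 22.6 FPKM to 11.3 and 9.72 (-0.94 ± 0.10, adjusted p = 0.000102), and had 16.4 and 17.9 in BR8, 17.2 and 18.8 in BR10 and 14.4 and 14.5 in BR16 (-0.33 ± 0.085 for the adapted mean). Without DMSO replicate 2 that adapted value was -0.23 and not called (adjusted p = 0.0832). EIF6 went from 36.3 and 22.02 FPKM to 11.2 and 11.01 (-1.28 ± 0.20, adjusted p = 0.000662), with both BLU667 libraries far below the others. The DMSO libraries of EIF6 differed widely, and its change was -0.93 without DMSO replicate 1 and -1.63 without DMSO replicate 2.

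EIF6 was highest in BR16, at 45.5 and 46.2 FPKM, against 24.2 and 27.7 in BR8 and 21.4 and 24.8 in BR10. Its adapted mean did not pass against DMSO (0.09 ± 0.16, adjusted p = 0.679), and that value was 0.44 without DMSO replicate 1 (adjusted p = 0.0111) and -0.26 without DMSO replicate 2 (adjusted p = 0.0669). EIF6 also shares exons on the same strand with AL121753.1, which had 0 to 1.504 FPKM.

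EIF5A, which carries the amino acid hypusine and helps ribosomes through difficult peptide bonds in elongation and termination, had the largest change of all members. The gene lies at chr17:7306999-7312463 (GRCh38). It fell from 189.6 and 185 FPKM in DMSO, the highest level among the 47 genes, to 42.2 and 37.5 in BLU667 (-2.21 ± 0.10, adjusted p = 8.11e-07). The change lay between -2.29 and -2.07 in all 21 alternatives. The colonies held 122 and 107 FPKM in BR8, 89.2 and 102 in BR10 and 138 and 132 in BR16, with no overlap with either parental group. EIF5A was lower than DMSO in the adapted mean (-0.72 ± 0.084, adjusted p = 0.000219), the largest fall there, and in each colony. Its paralogue EIF5A2 went from 7.17 and 9.85 FPKM to 3.83 and 4.16 in BLU667 (-0.92 ± 0.14, adjusted p = 0.000577). In the colonies EIF5A2 stood at 9.87 and 9.095 FPKM (BR8), 8.73 and 9.001 (BR10) and 5.901 and 4.897 (BR16), and was called lower than DMSO in BR16 (-0.56 ± 0.14, adjusted p = 0.0109).

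**Figure D2:**
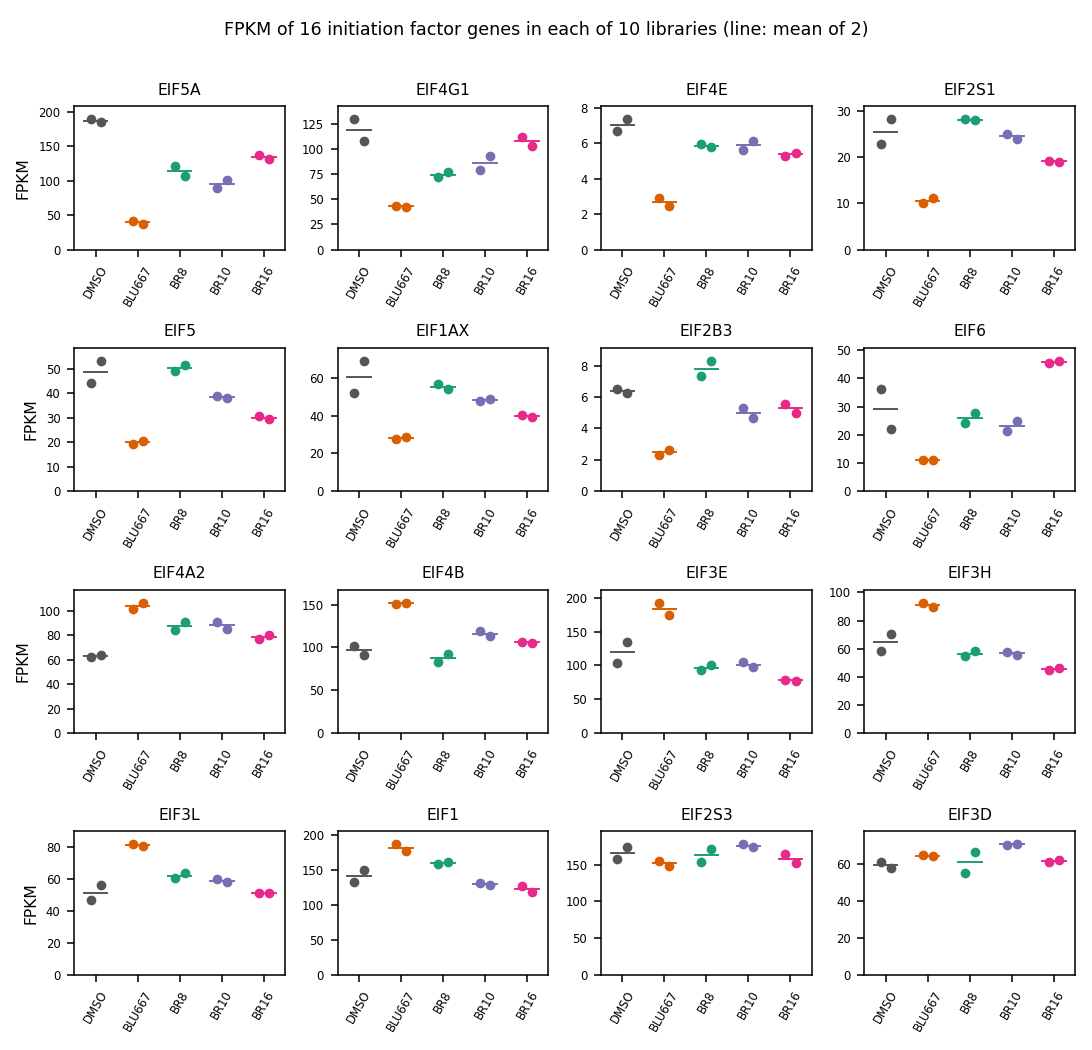
FPKM of 16 initiation factor genes in the 10 libraries (points, 1 per library; lines, mean of the 2 libraries of a group; linear axes from 0). EIF5A fell from 189.6 and 185 FPKM in DMSO to 42.2 and 37.5 in BLU667, EIF4A2 rose from 62.2 and 64.1 to 102 and 107, and EIF2S3 and EIF3D did not pass the test.

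The remaining untested members were low. EIF2S3B, a retrogene of EIF2S3, had 0.285 to 0.587 FPKM and EIF5AL1 had 0.0749 to 0.527, and each is nearly identical to a highly expressed gene, so their reads are uncertain. EIF4E1B had 0 reads in all 10 libraries, where 3 reads are the limit that a count of 0 allows in each library for counting error only.

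Levels in DMSO ran from a mean of 187 FPKM for EIF5A to under 1 FPKM. After EIF5A came EIF2S3 (mean 166 FPKM), EIF4G2 (148), EIF1 (141), EIF3I (138) and EIF4H (132), whose neighbours in this order overlapped in their 2 libraries. The lowest of the factors with a firm level were EIF2B4 (4.76), EIF2B2 (4.86), EIF2B3 (6.37) and EIF4E (7.04). This order depends on the deposited gene lengths, which were 14067 bases for EIF4E and 3411 for EIF2B3. In BLU667, with EIF5A at 39.9 FPKM, the most abundant members were EIF3E (184), EIF1 (182), EIF2S3 (152) and EIF4B (152).

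In the adapted colonies together, 16 of the 43 genes were lower than in DMSO and 1, EIF4A2, was higher, and 26 did not pass. Across all tested genes 26.3% were called lower and 22.9% higher. Without DMSO replicate 2 the count was 10 lower and 4 higher: 8 of the 17 calls were kept, EIF1AX, EIF1B, EIF2B2, EIF2B5, EIF3E, EIF3H, EIF3I, EIF4E and EIF5B lost theirs, EIF3B, EIF3C and EIF3G were added on the lower side and EIF3J, EIF3L and EIF3M on the higher. Without BR16 in the mean it was 11 lower and 5 higher, with 10 calls kept and EIF1AX, EIF2B2, EIF3E, EIF3H, EIF3I, EIF5 and EIF5B lost. Quantile normalization gave 13 lower and 3 higher. The median log2 change was -0.14, against -0.03 over all tested genes. The 6 largest falls were EIF5A, EIF3A (-0.61), EIF4G1, EIF2A, EIF2S2 and EIF3E. None of the called changes reached 1 on the log2 scale. The SE of the adapted mean comes from the spread between libraries. When the 3 colony means were used as the replicates, limma called none of the 43 genes, 3 had an unadjusted p under 0.05, and 5.65% of all tested genes were called. With all libraries as in the main test, voom on the recovered reads called 19 of the 43.

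Against acute BLU667, the adapted colonies were higher for 21 of the 43 genes and lower for 8. Across all tested genes 32.4% were called higher and 28.7% lower, and the median of the 43 genes was 0.24 against 0.03 over all genes. The largest differences were EIF5A (1.49 ± 0.084, adjusted p = 2.47e-06), EIF6 (1.37 ± 0.16), EIF4A3 (1.12 ± 0.073), EIF2S1 (1.08 ± 0.086), EIF3B (1.03 ± 0.056) and EIF4G1 (1.021 ± 0.092). On the lower side were EIF3E (-1.002 ± 0.10, adjusted p = 5.49e-05), EIF3H (-0.78 ± 0.081), EIF2A (-0.59 ± 0.095), EIF4B (-0.56 ± 0.071), EIF3L (-0.50 ± 0.076) and EIF1 (-0.41 ± 0.070). With the 3 colony means as replicates, 13 were called higher and 2 lower, where 20% of all tested genes were called either way. The BLU667 libraries enter both this comparison and the one with DMSO, so the opposite signs of the 2 comparisons share their samples and are no independent evidence.

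Taken singly, BR8 had 6 members higher and 7 lower than DMSO, where 24% and 27.3% of all tested genes were called. BR10 had 2 higher and 14 lower, against 19.2% and 21.5% of all genes. In BR16 4 were higher and 15 lower, against 21.9% and 23.6%. EIF4A2 was higher and EIF5A, EIF3A and EIF2S2 were lower in each of the 3. EIF5A and EIF3A kept these calls in all 21 alternatives, EIF4A2 lost its call in BR16 without BR16 replicate 2 (0.275, adjusted p = 0.098) and with only the groups compared (adjusted p = 0.0512), and EIF2S2 lost those in BR8 and BR10 as given above. These comparisons share the DMSO libraries. Fitting only the groups compared left 8, 4 and 10 called genes in BR8, BR10 and BR16, and the share of all tested genes called either way was then 35.6%, 23.9% and 33.3%. The BR8 split was 5 higher and 12 lower without DMSO replicate 1 (46.9% of all genes called), 10 and 7 without DMSO replicate 2 (53%), and 6 and 16 with the GC trend of each library removed (54.5%). The BR10 count was 6 without BR10 replicate 1 (25.5% of all genes), 7 without BR10 replicate 2 (30.8%) and 10 without either library of BR16 (36.1%). The BR16 count was 8 without BR16 replicate 2 (31% of all genes), none of them higher, and 11 without BR16 replicate 1 (32.5%), 1 of them higher.

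The colonies differed among themselves in 22 of the 43 genes (51.2%) by a moderated F test, which called 58.1% of all tested genes, a larger share. The count was 12 without BR16 replicate 2 and 13 without BR16 replicate 1, and the share of all tested genes also fell, to 37.6% and 39.9%. The 6 members with the smallest adjusted p were EIF4H, EIF4E2, EIF4A3, EIF3B, EIF5 and EIF3G, and all 6 kept their call in all 21 alternatives. In pairs of colonies, BR8 and BR10 differed in 10 members (22.8% of all genes), BR8 and BR16 in 24 (48.6%) and BR10 and BR16 in 14 (43.1%).

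EIF4H, a helper of the eIF4A helicase, had 142 and 121 FPKM in DMSO, 249 and 224 in BR8, 76.99 and 84.2 in BR10 and 120.5 and 112 in BR16. BR8 was above and BR10 below all other groups. The log2 difference of BR8 from BR10 was 1.54 ± 0.10 (adjusted p = 5.03e-05). EIF4E2 was low in BR8, at 4.18 and 4.02 FPKM, against 7.48 and 7.401 in BR10 and 9.17 and 8.54 in BR16, and the difference of BR8 from BR16 was -0.95 ± 0.074 (adjusted p = 0.000151). EIF4A3 was high in BR8, at 39.6 and 39.5 FPKM, against 23.5 and 27.6 in BR10 and 23.01 and 22.5 in BR16 (0.77 ± 0.089 (adjusted p = 0.000587) for BR8 minus BR16).

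EIF3B was also highest in BR8, with 42.9 and 43.1 FPKM, against 30.4 and 31.3 in BR10 and 30.8 and 29.5 in BR16. BR10 and BR16 did not differ beyond their spread (0.03 ± 0.068 (adjusted p = 0.73)). EIF5 descended from BR8 over BR10 to BR16, as given above, with 0.73 ± 0.094 (adjusted p = 0.000873) for BR8 minus BR16. EIF3G, an RNA-binding subunit, was high in BR16, at 29.5 and 29.4 FPKM, against 8.47 and 10.2 in BR8 and 11.4 and 14.02 in BR10, and the difference of BR8 from BR16 was -1.57 ± 0.21 (adjusted p = 0.00105). The DMSO libraries spanned 25.7 and 15.4 FPKM for EIF3G.

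**Figure D3:**
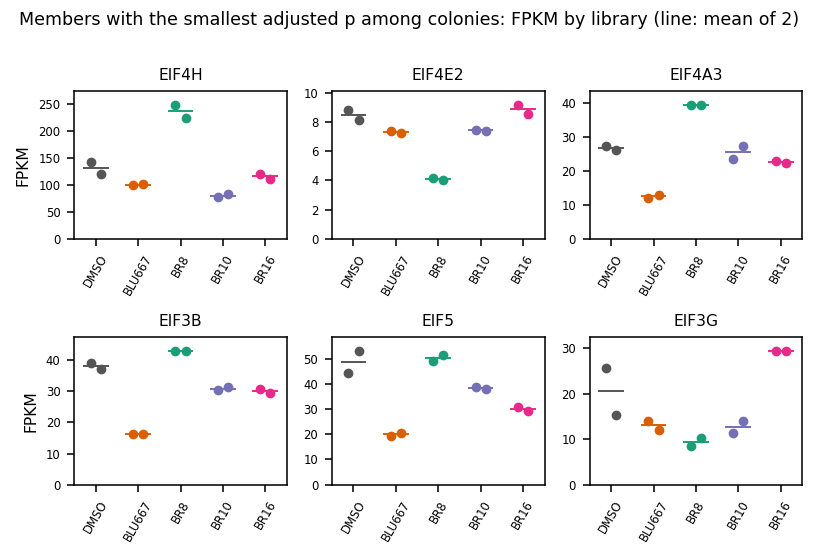
FPKM of the 6 initiation factor genes with the smallest adjusted p among the 3 colonies, in all 10 libraries (points, 1 per library; lines, mean of the 2 libraries of a group; linear axes from 0). EIF4H is highest in BR8 (249 and 224 FPKM), EIF4E2 is lowest in BR8 (4.18 and 4.02 FPKM) and EIF3G is highest in BR16 (29.5 and 29.4 FPKM).

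Position on the chromosome was looked at for these genes, after their values had been seen. For EIF4E2 (chr2:232550052-232583644, GRCh38), the 12 tested neighbours within 1 Mb were all lower in BR8 than in the mean of the other colonies, with a median log2 difference of -0.72, and EIF4E2 itself stood at -0.84. For EIF4H (chr7:74174245-74197101), the median of 20 neighbours was 0.73 in BR8, 14 of them higher, and EIF4H stood at 1.28. For EIF4A3 (chr17:80135214-80147183), 12 neighbours had a median of -0.03 and EIF4A3 stood at 0.69. Of the other 3 genes in BR8, EIF3B (0.48) had 16 neighbours with a median of 0.14, EIF5 (0.55) had 17 with a median of 0.008 and EIF3G (-0.99) had 38 with a median of -0.26. In BR16 EIF5 stood at -0.54 and the median of its neighbours at 0.19. The median over all tested genes was 0 in BR8. DNA copy number was not measured, and its part was not tested.

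Transcript GC content moved with several of these differences. Across the 43 genes, the Spearman correlation with GC content was -0.754 for DMSO replicate 2 minus replicate 1, -0.444 for BR8 minus BR16, 0.377 for BR16 minus DMSO and -0.258 for BLU667 minus DMSO. The genes share the same libraries, so these values are descriptions. EIF3G (59.3% GC) and EIF6 (59.0% GC) had the highest GC content, and their DMSO libraries differed by -0.71 and -0.70 on the log2 scale. The genes that rose in BLU667 had a median GC content of 45.2% (38.5% to 48.9%) and those that fell 48.9% (36.4% to 59.3%). With the GC trend of each library removed, 32 members were called in BLU667 against DMSO in place of 33.

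**Figure D4:**
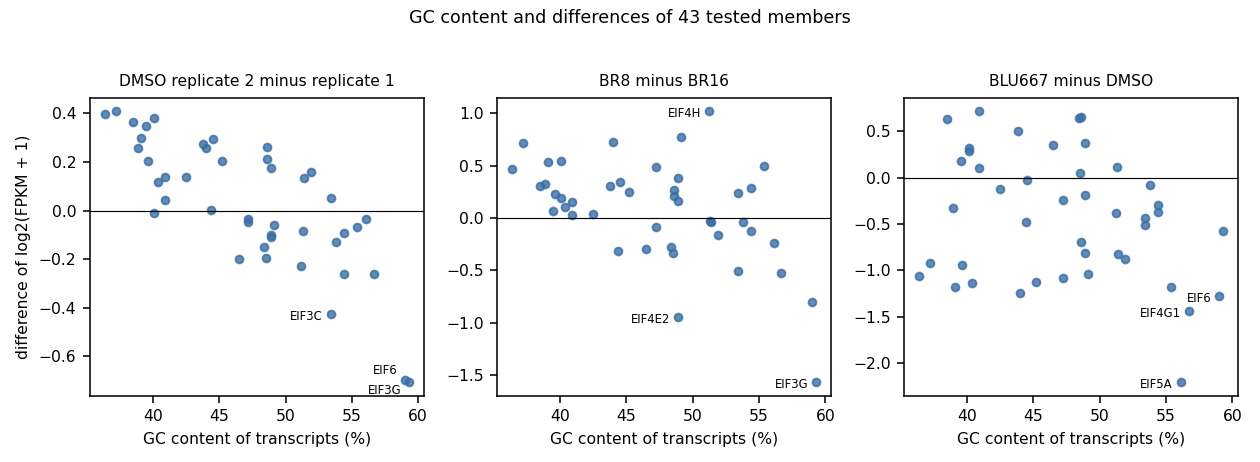
Difference of log2(FPKM + 1) against the GC content of the transcripts (%) for the 43 tested initiation factor genes (points, 1 per gene) between the 2 DMSO libraries, between BR8 and BR16, and between BLU667 and DMSO. The points descend with GC content between the DMSO libraries (Spearman correlation -0.754), less so between BR8 and BR16 (-0.444) and least between BLU667 and DMSO (-0.258).

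Exons of 17 of the 47 genes overlap another gene that reached 1 FPKM in at least 1 library, 16 of them on the other strand. The libraries keep no strand, and how reads that fall in both genes were counted is not stated. The values of EIF1AD (BANF1), EIF2S1 (ATP6V1D), EIF3H (UTP23), EIF3J (SPG11), EIF4G2 (CTR9) and the others may hold reads of the partner or lack shared reads. The share of such reads was not tested.

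The counts for the pathway lists that follow stand beside all tested genes, of which 29% rose and 31.2% fell in BLU667 and 22.9% were higher and 26.3% lower in the adapted mean. The genes that control eIF4E formed a list of 9, of which 8 were tested. In BLU667, 2 rose and 3 fell. EIF4EBP1, the best known inhibitor of eIF4E, fell from 100.1 and 58.3 FPKM in DMSO to 9.74 and 10.5 (-2.80 ± 0.22, adjusted p = 1.47e-05). It stood at 22.3 and 24.4 in BR8, 26.4 and 33.6 in BR10 and 35.4 and 36.1 in BR16, between the parental groups. MKNK2, a kinase of eIF4E, changed by -1.23 and LARP1, which represses pyrimidine-start mRNAs, by -1.04. EIF4ENIF1, the carrier that takes eIF4E into the nucleus, rose from 4.98 and 4.93 to 10.8 and 10.7 FPKM (0.98 ± 0.076), and PDCD4, an inhibitor of eIF4A, rose by 0.68. In the adapted colonies 2 of the 8 were higher and 4 lower than in DMSO, with PDCD4 among the lower (-0.38 ± 0.11).

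Among the 9 eIF2 kinase and phosphatase cofactor genes, 4 fell and none rose in BLU667, against 31.2% and 29% of all tested genes. PPP1R15B, which directs the phosphatase to eIF2, fell from 33.7 and 37.3 to 21.6 and 21.03 FPKM (-0.71 ± 0.077). In the colonies 3 were higher and 1 lower than in DMSO. EIF2AK3, the kinase PERK of the endoplasmic reticulum, stood at 2.63 and 3.21 FPKM in DMSO, 2.896 and 2.82 in BLU667, 7.49 and 7.504 in BR8, 4.35 and 4.38 in BR10 and 4.67 and 4.33 in BR16 (0.69 ± 0.073 for the adapted mean, adjusted p = 0.000127). PPP1R15A, the stress-induced cofactor, was highest in BR16, at 13.2 and 13.2 FPKM, against 5.79 and 6.16 in BR8, 5.74 and 6.58 in BR10 and 5.88 and 4.42 in DMSO.

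For mTORC1 and S6 kinase, 3 of 11 genes rose and 6 fell in BLU667, against 29% and 31.2% of all tested genes, so that the share that rose was near the background. MTOR fell from 9.63 and 9.58 to 4.41 and 4.64 FPKM (-0.94 ± 0.088), while the mTOR inhibitor gene DEPTOR rose from 4.81 and 4.08 to 12.2 and 12.4 (1.29 ± 0.11) and TSC1 by 0.70. In the colonies DEPTOR was 2.39 and 2.56 FPKM in BR8, 8.82 and 10.1 in BR10 and 6.81 and 7.93 in BR16. In the adapted mean, 2 of the 11 were higher and 4 lower than in DMSO.

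Of 4 tested poly(A) binding protein genes and partners, 1 fell in BLU667, PABPC4 (-0.29), and in the colonies 3 were lower and 1 higher than in DMSO. PABPC1, which bridges the poly(A) tail to eIF4G, had 646 and 692 FPKM in DMSO and 714 and 613 in BLU667, and 381 and 436 in BR8, 463 and 476 in BR10 and 506 and 493 in BR16 (-0.55 ± 0.086 for the adapted mean, adjusted p = 0.00112). The 6 colony libraries were below the 4 parental ones. Of 5 accessory and recycling factors, 3 fell in BLU667, among them ABCE1, which splits ribosomes after termination (32.7 and 44.4 to 15.5 and 14.5 FPKM, -1.29 ± 0.14), and 3 were lower in the colonies.

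Of 7 tested elongation factor genes, 2 rose and 3 fell in BLU667, where 29% and 31.2% of all tested genes did, so that the share that rose was near the background. EEF1A1, which delivers aminoacyl-tRNA, rose by 0.70 and EEF2, the translocase, by 0.47 on the log2 scale. In the adapted mean EEF1D was lower than in DMSO (-1.03 ± 0.14), with 5.46 and 4.54 FPKM in BR8 and 3.802 and 4.81 in BR10 against 13.7 and 13.6 in BR16 and 16.6 and 13.2 in DMSO. All 3 tested termination and hypusine enzyme genes fell in BLU667, with ETF1, the release factor, at -1.13 and DOHH, which completes hypusine on eIF5A, at -1.43. In the adapted mean 2 of these 3 were lower, DOHH at -1.05 ± 0.21 with 9.82 and 9.07 FPKM in BR16, within the DMSO range. MTIF3, a mitochondrial initiation factor, rose by 0.80 in BLU667, while MTIF2 did not pass the test. EEF1G and GSPT2 were listed at 0 in all libraries, and DHPS was below 1 FPKM.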

How the data were processed

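RNA of 10 TPC-1 libraries (2 per group) was isolated with TRI reagent and Direct-zol columns, cleared with GlobinClear and turned into NEB libraries without strand information, per the labels' protocols. CASAVA, STAR 2.5, HTSeq 0.6.1 and DESeq2 (version given as 2) were used with GRCh38 (hg38), per the submitters' processing notes; which annotation release was counted is not stated. The authors deposited FPKM per gene, and each of the 10 columns matched 1 sample's labels. Whole reads were recovered from FPKM and gene length for 100.0% of values (tolerance 0.05), with 15243703 to 21904245 per library, and served for depth and 1 alternative test only.

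The filter kept 13927 genes that reached 1 FPKM in 2 or more libraries. On the scale log2(FPKM + 1), limma 3.58.1 (R 4.3.3) fitted the 5 groups together, with a trend of the variance on the mean and 5 residual degrees of freedom. Two-sided p-values were adjusted over all tested genes (Benjamini-Hochberg) and called below 0.05. Changes on this scale are understated for low genes. The adapted value is the mean of 3 colony means, and colonies were compared with each other by a moderated F test. A count test had been planned for the case of raw counts and was not needed. No test over a list of genes was run.

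Named with full statistics were the 6 called members with the largest rise and fall in each of 3 comparisons, the 6 with the smallest adjusted p among colonies, and EIF4E, EIF4A1, EIF4G1, EIF2S1, EIF2B5, EIF6 and the paralogue pairs; other tested members could be named with level and change, and up to 4 called genes per pathway list. Members, lists and tests were chosen with earlier results of these data known. GC content and exon overlaps came from GENCODE release 29, promoter sequences from RefSeq (GRCh38.p14). On simulated data for BLU667 against DMSO (13057 genes), the fit called 44 of 96 genes changed 2-fold, 86 of 96 changed 4-fold and 11 of 12865 unchanged. The alternatives were other pseudocounts, filters, scalings and tests, GC correction, a replicate block and leaving out libraries. P-values measure the spread between 2 libraries per group.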

Additional observations from a re-analysis of the deposited data

Results flagged for a closer look

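Of the 43 tested initiation factor genes, 22 had changes against DMSO that differed among the 3 adapted colonies (limma, moderated F test, adjusted over 13927 genes). They are flagged because the same contrast gave different values in BR8, BR10 and BR16. The F test called 58.1% of all tested genes, so this count by itself is not particular to the family.

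The smallest adjusted p belonged to EIF4H (8.27e-05), whose change against DMSO was 0.85 ± 0.10 in BR8, -0.70 ± 0.10 in BR10 and -0.17 ± 0.10 in BR16. EIF4E2 (adjusted p = 0.000138) changed by -0.90 ± 0.074 in BR8, -0.17 in BR10 and 0.05 in BR16. EIF4A3 (adjusted p = 0.000649) gave 0.55 ± 0.089 in BR8, -0.07 in BR10 and -0.23 in BR16. For EIF3B (adjusted p = 0.00107) the changes were 0.17, -0.30 and -0.33 in the same order. For EIF5 (adjusted p = 0.00137) they were 0.05, -0.33 and -0.68, and for EIF3G (adjusted p = 0.00144) -1.023, -0.62 and 0.55. The SE of each EIF3G change was 0.21. Its BR16 change was not called (adjusted p = 0.0684), and its BR10 call (adjusted p = 0.0492) was lost in 17 of 21 alternatives. Also not called against DMSO were EIF4H in BR16, EIF4E2 and EIF4A3 in BR10 and BR16, and EIF3B and EIF5 in BR8. EIF3G has the highest GC content of the tested members (59.3%), and the Spearman correlation of BR8 minus BR16 with GC content over all genes was -0.615. The part of GC content in the value of EIF3G was not tested.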

How the results depend on the processing

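In 21 alternatives (23 for the adapted mean), no called change of a member reversed its sign. Calls kept in each alternative that tested the member were 24 of 33 for BLU667 against DMSO. They were 15 of 29 for the adapted colonies against BLU667, 8 of 13 for BR8 and 4 of 16 for BR10. For BR16 they were 7 of 19, and among colonies 7 of 22. None of 17 was kept in each alternative for the adapted colonies against DMSO. With the 3 colony means as replicates, 0 members were called against DMSO by limma (3 at an unadjusted p under 0.05) and 15 against BLU667 (13 higher, 2 lower); that fit rests on fewer samples. With only the groups compared, which leaves fewer libraries to estimate the spread, 8 members were called in BR8, 4 in BR10 and 10 in BR16. Removing the GC trend gave 22 in BR8, and no filter on low values gave 10 in BR10; the cause was not tested.

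Leaving out 1 library at a time gave 27 to 35 called members for BLU667 against DMSO, 13 to 20 for the adapted colonies against DMSO, 28 to 32 against BLU667, 10 to 17 for BR8, 6 to 16 for BR10 (6 without BR10 replicate 1, 7 without replicate 2, 10 without either BR16 library), 8 to 23 for BR16 (8 without BR16 replicate 2, 11 without replicate 1) and 12 to 30 among colonies (12 without BR16 replicate 2, 13 without replicate 1, 30 without DMSO replicate 1 and 29 without DMSO replicate 2). The split of higher to lower for the adapted colonies against DMSO moved from 1 and 16 to 5 and 11 without BR16 in the mean, 4 and 10 without DMSO replicate 2, 3 and 17 without DMSO replicate 1, 3 and 13 with quantile normalization and 3 and 19 with the GC trend removed. It moved from 6 and 7 to 8 and 6 with quantile normalization in BR8 (6 and 16 with the GC trend removed, 5 and 12 without DMSO replicate 1, 10 and 7 without DMSO replicate 2), and from 2 and 14 to 5 and 9 in BR10 (5 and 13 with voom).

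The replicate numbers of the labels did not pair the libraries: deviations of libraries with the same number correlated between -0.163 and 0.109. With the replicate block, 31 members were called for BLU667 against DMSO, 17 for the adapted colonies against DMSO, 29 against BLU667, 11 in BR8, 11 in BR10, 17 in BR16 and 20 among colonies. EIF4A1, EIF4E3, EIF3C and EIF3CL lie near the filter, and the part of depth in their values was not tested.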
